A study of Mus musculus with 9 samples.

Results

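Respiratory complex I is the NADH dehydrogenase of the inner mitochondrial membrane. It passes electrons from NADH to ubiquinone and pumps protons. The genes described here are its nuclear-encoded subunits, taken as every gene whose array annotation symbol begins with Ndufa, Ndufb, Ndufc, Ndufs or Ndufv. The assembly factors (Ndufaf genes), Ndufa4 and Ndufa4l2 were left out. This rule found 33 members among 17097 measured genes, each represented by the single-gene probe set with the highest mean over the 9 arrays. Of these, 6 encode core subunits, which carry the flavin, the iron-sulfur clusters and the ubiquinone site, and 27 were counted as accessory. One of the 27, Ndufs5-ps, is named by the array annotation for a transcribed pseudogene, and is kept as the rule gives it. Ndufa13, Ndufb1, Ndufb6 and Ndufs5 were represented by no probe set with a name, so they are not analysed here, nor are the mitochondrially encoded core subunits.

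The arm of the complex that reaches into the matrix holds the N module, where NADH is oxidised, and the Q module, where ubiquinone is reduced. The membrane arm holds the proton pumps, with accessory subunits along its proximal and distal parts. Most accessory subunits do not take part in the electron path. They are known for roles in assembly and stability. Activated CD8+ T cells raise both glycolysis and mitochondrial respiration, and mTORC1, the kinase that the Tsc1 complex restrains, is known to promote expression of mitochondrial genes.

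The arrays measured RNA of OVA-specific CD8+ T cells that were sorted from the spleens of C57BL/6 mice 9 days into an infection with Listeria monocytogenes. In the Tsc1-/- group (5 samples) the mice carried Tsc1-fl/fl alleles and Granzyme B-cre. In the WT group (4 samples) they carried Tsc1-fl/fl alleles and no cre. Granzyme B drives cre in activated cytotoxic cells, so deletion begins only after activation. Cre was present in one genotype only, so its own effects and those of losing Tsc1 cannot be told apart. Whether the samples came from separate animals is not in the labels, and p-values therefore describe the variation among these 9 arrays, which may be technical.

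Tsc1 itself read 7.40 ± 0.09 (SD, n = 5) in Tsc1-/- and 7.66 ± 0.09 (SD, n = 4) in WT on the deposited log2 scale, with every Tsc1-/- array below every WT array (difference -0.26, limma adjusted p = 0.114). All 11 measured CD8 T cell markers were well expressed, with a mean of 11.49 to 11.54 per array in Tsc1-/- and 11.39 to 11.46 in WT, and one of them, Gzmb, rose by 0.58 (limma adjusted p = 0.0339). Of 13 macrophage and monocyte markers, 12 had negative differences, none past the threshold, and their mean was 6.13 to 6.52 in Tsc1-/- and 6.37 to 7.12 in WT. The macrophage markers Adgre1, Mrc1, Cd14 and Fcgr1 were below 6.34, the median level of all genes. Others were brighter, such as Lyz2 (7.80 in Tsc1-/- and 8.84 in WT) and Cd68 (8.01 and 8.21). Of 9 B cell markers, 8 had negative differences (means 5.21 to 5.78 in Tsc1-/- and 5.51 to 6.02 in WT), and 6, among them Ms4a1 and Pax5, were below 6.34. The 9 dendritic cell and 8 neutrophil markers all had negative differences. Dendritic cell means were 7.35 to 7.93 in Tsc1-/- and 7.67 to 8.22 in WT, and neutrophil means 5.76 to 7.75 and 6.71 to 7.52. Some of these markers were bright, such as Cd74 (10.22 in Tsc1-/- and 10.92 in WT) and S100a9 (9.49 and 10.04). Of 5 NK cell markers, 4 had negative differences (means 6.10 to 6.61 in Tsc1-/- and 6.37 to 6.83 in WT), and Eomes, which CD8 T cells also express, fell (difference -0.58, limma adjusted p = 0.0359). All 17 measured cell cycle genes had positive differences, 8 of them past the threshold, with means of 8.80 to 9.30 in Tsc1-/- and 7.998 to 8.64 in WT. Over all genes, 48.2% had positive differences and 0.971% were called higher at an adjusted p under 0.05 (limma). In sorted populations, a change in the mix of cells and a change in RNA per cell cannot be told apart.

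Every complex I member measured had a higher mean in Tsc1-/- than in WT cells. The difference was positive for 33 of 33 members, where 48.2% of all genes did. The median difference, Tsc1-/- minus WT, was 0.26 on the log2 scale (1.20-fold), against -0.01 over all genes. For 18 of the 33 every Tsc1-/- array lay above every WT array, where 5.08% of all genes did so. Taken one by one, 4 members rose at an adjusted p under 0.05 (limma, Benjamini-Hochberg over all genes), where 0.971% of all genes did, and none fell. These were Ndufc2, Ndufs8, Ndufa11 and the probe set named Ndufs5-ps.

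The count of 4 depended on single arrays. It was 0 without WT replicate 1, WT replicate 2 or Tsc1-/- replicate 2, 4 or 5. Over all 17097 genes, 1, 2, 6, 21 and 1 were called higher in these fits, in that order, against 166 with all arrays. The member count was 1 without Tsc1-/- replicate 1 (Ndufs8) or Tsc1-/- replicate 3 (Ndufc2). It was 2 without WT replicate 3 (Ndufa11 and Ndufs5-ps) and 7 without WT replicate 4. In these fits 142, 41, 70 and 297 of all genes were called higher. In the fits with no member called, 21 to 24 members had an unadjusted p under 0.05 (limma), as did 2360 to 2795 of the 17097 genes. With 1 array left out, the median difference of the members was 0.22 to 0.28. All members stayed positive in these fits, except Ndufs1 at -0.01 without WT replicate 3. Among the 3696 genes with probe sets at least as bright as the dimmest member, a set taken after the values were seen, 62.6% had positive differences, 14.3% had every Tsc1-/- array above every WT array, 2.54% were called higher, and the median was 0.06.

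**Figure D1:**
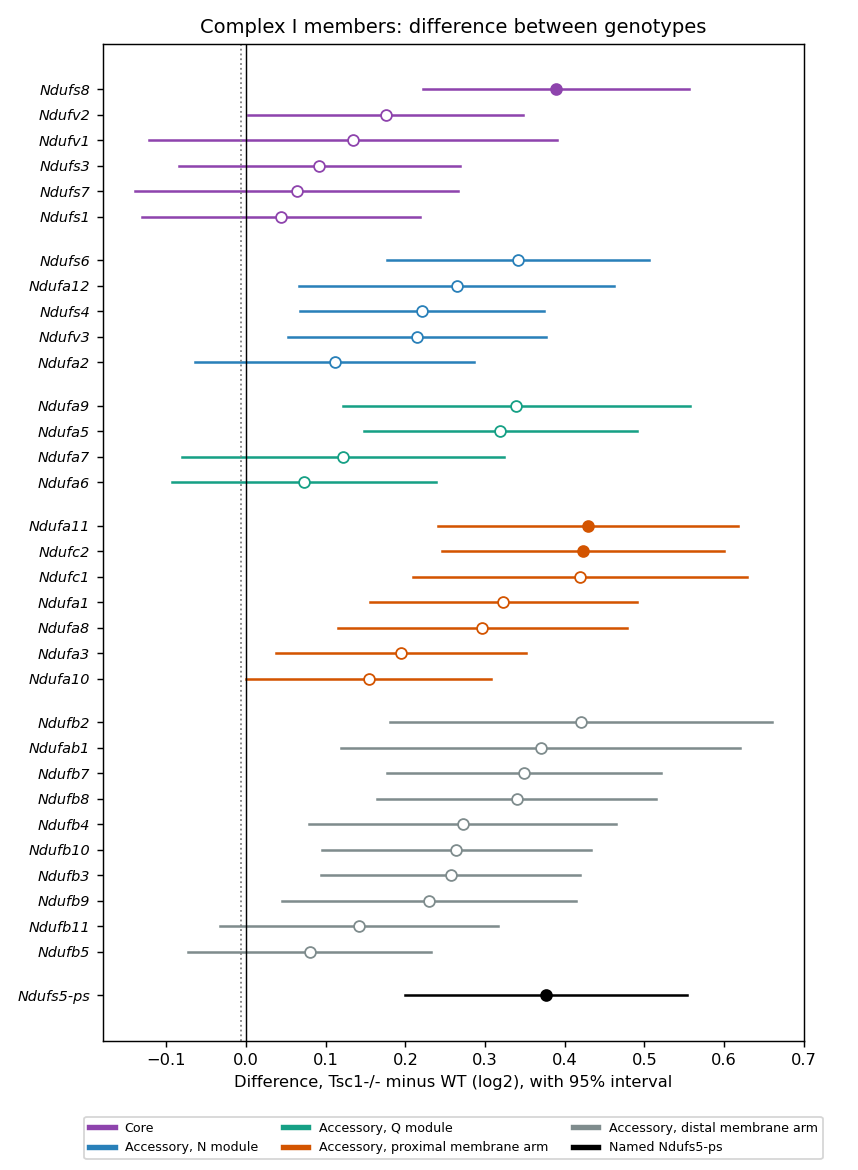
Difference between genotypes for each of the 33 members, Tsc1-/- minus WT on the log2 axis, with limma's 95% intervals. Filled points passed the adjusted threshold, the dotted line is the median over all genes (-0.01), and every point lies to the right of 0.

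Ndufc2, an accessory subunit of the proximal membrane arm, read 9.69, 9.59, 9.48, 9.74 and 9.71 in Tsc1-/-, against 9.10, 9.27, 9.29 and 9.23 in WT. The lowest Tsc1-/- array, replicate 3, was above the highest WT array. The difference was 0.42 (SE 0.08, limma adjusted p = 0.0359), or 1.34-fold.

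Ndufa11, a membrane-spanning subunit of the same part of the complex, read 10.30, 10.23, 10.27, 10.19 and 10.34 in Tsc1-/- and 9.67, 9.75, 10.03 and 9.91 in WT. The groups did not overlap, and WT replicates 1 and 2 were the lowest. The difference was 0.43 (SE 0.09, limma adjusted p = 0.0383), the largest among the 33 members. A second probe set of Ndufa11, dim at 5.62, differed by -0.05.

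Ndufs8, the core subunit that holds a pair of iron-sulfur clusters on the way to ubiquinone, read 9.17, 9.23, 9.13, 9.16 and 9.28 in Tsc1-/- and 8.72, 8.79, 8.76 and 8.95 in WT. The groups did not overlap, and WT replicate 4 lay nearest to the Tsc1-/- arrays. The difference was 0.39 (SE 0.08, limma adjusted p = 0.0371). Its 3 further probe sets, all above the median level of all genes, differed by 0.41, 0.24 and 0.01, so the probe sets of this gene disagreed in size.

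The probe set named Ndufs5-ps read 9.36, 9.50, 9.39, 9.46 and 9.47 in Tsc1-/- and 8.96, 9.08, 9.24 and 8.96 in WT, again with no overlap (difference 0.38, SE 0.08, limma adjusted p = 0.0483). A second probe set of that name differed by 0.35. The first is of a type that can detect several related transcripts, so the pseudogene cannot be told apart from the coding gene Ndufs5, whose product lies on the intermembrane side of the proximal membrane arm.

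With the cell cycle level of each array as a covariate, these 4 genes differed by 0.29 (Ndufc2), 0.21 (Ndufa11), 0.29 (Ndufs8) and 0.36 (Ndufs5-ps). With the macrophage marker level they differed by 0.37, 0.38, 0.29 and 0.43 in the same order. None passed the threshold in either fit, and neither did any other gene of the array (limma). With these covariates 4 and 13 of the 33 members had an unadjusted p under 0.05 (limma), as did 1449 and 1670 of the 17097 genes. The cell cycle means of the genotypes did not overlap (8.80 to 9.30 in Tsc1-/-, 7.998 to 8.64 in WT). The fit with that covariate therefore separates genotype from cell cycle level poorly. The macrophage marker means overlapped only through WT replicate 4, so the fit with that level separates genotype from it poorly too. With a gene's probe sets averaged, only Ndufc2 of the 4 kept its call, while Ndufa11 was at 0.19 (limma adjusted p = 0.248), Ndufs8 at 0.26 (0.0519) and Ndufs5-ps at 0.36 (0.0517).

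**Figure D2:**
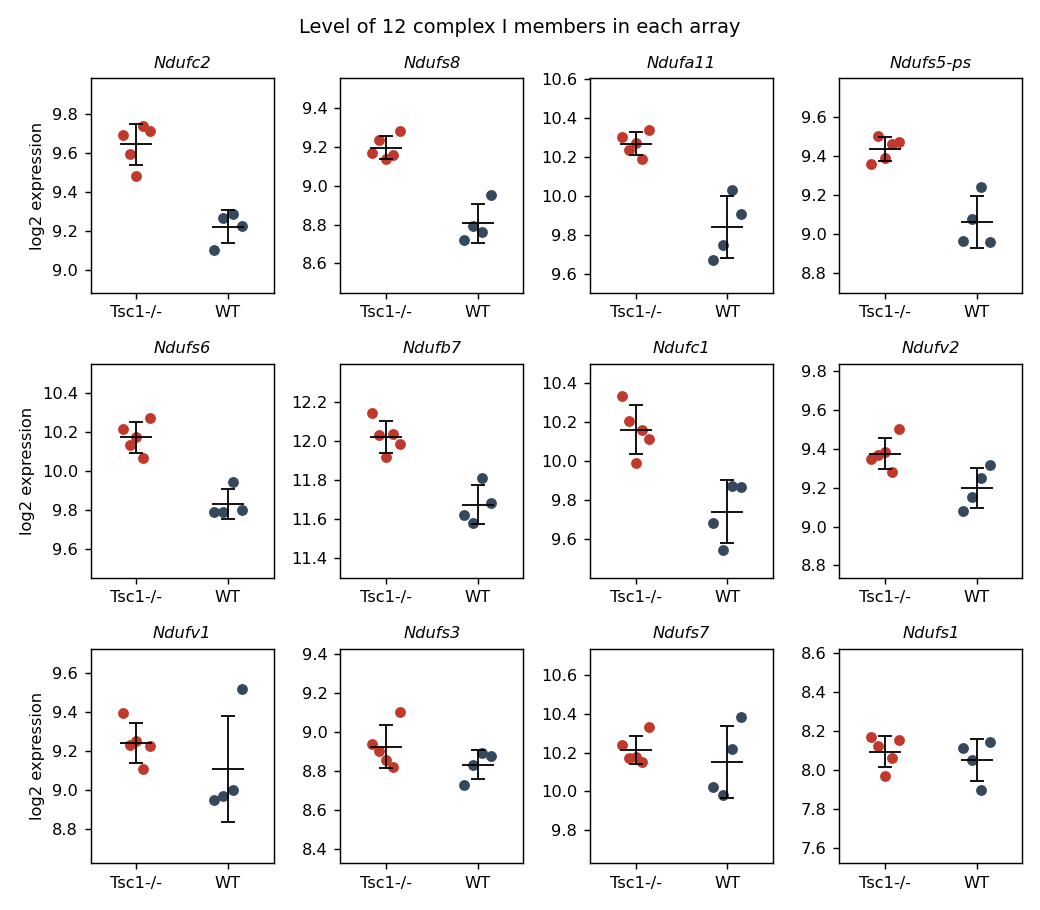
Level of 12 members in each array on the log2 axis, Tsc1-/- left and WT right, with group means and SD as bars. All panels span the same width of scale; the genotypes separate in the 7 members from Ndufc2 to Ndufc1 and overlap in Ndufv2, Ndufv1, Ndufs3, Ndufs7 and Ndufs1, where WT replicate 4 of Ndufv1 stands at 9.52.

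Apart from Ndufs8, the core subunits differed little. The median over the 6 was 0.11, against 0.27 over the 27 accessory members, and 4 of the 6 lay among the 8 smallest differences of the 33. No test was made of core against accessory members, since the members share arrays and were chosen with earlier results known. The core median moved with single arrays, to 0.07 without WT replicate 1 and to 0.18 without WT replicate 4.

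Ndufv1, which binds NADH and the flavin, read 9.39, 9.23, 9.25, 9.10 and 9.23 in Tsc1-/- and 8.95, 8.97, 9.00 and 9.52 in WT. WT replicate 4 was above every Tsc1-/- array, while the other WT arrays were below all of them. The difference was 0.13 (95% interval -0.12 to 0.39), and 0.27 without WT replicate 4 (limma adjusted p = 0.125). Its second probe set differed by 0.19. Ndufv2, which carries an iron-sulfur cluster beside it, differed by 0.18 (95% interval 0.00 to 0.35, limma adjusted p = 0.283), and by 0.12 in its second probe set.

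Ndufs1, the largest subunit of the N module and the carrier of several iron-sulfur clusters, read 8.17, 8.12, 7.97, 8.06 and 8.15 in Tsc1-/- and 8.11, 8.05, 7.90 and 8.14 in WT. The ranges overlapped almost fully, and the difference was 0.04 (95% interval -0.13 to 0.22). Ndufs3, of the Q module, differed by 0.09 (95% interval -0.08 to 0.27). Ndufs7, which holds the last cluster before ubiquinone, differed by 0.06 (95% interval -0.14 to 0.27), and by 0.15 in its second probe set. In Ndufs7, WT replicate 4 at 10.38 was above all Tsc1-/- arrays (10.15 to 10.33), as in Ndufv1.

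The mean of the accessory members was 10.17, 10.21, 10.16, 10.15 and 10.24 in Tsc1-/-, against 9.83, 9.90, 9.97 and 9.96 in WT. The genotypes did not overlap. The mean of the core members was 9.21, 9.17, 9.13, 9.10 and 9.27 in Tsc1-/- and 8.94, 8.96, 9.00 and 9.20 in WT, where WT replicate 4 lay within the Tsc1-/- range. The accessory mean minus the core mean was 0.96 to 1.06 per array in Tsc1-/- and 0.76 to 0.97 in WT, and these ranges overlapped. WT replicate 4 also had the lowest macrophage marker mean of the WT group (6.37, against 6.97 to 7.12 in the other 3) and the highest cell cycle mean (8.64, against 7.998 to 8.52). WT replicate 1 was the lowest of its group in 17 of the 33 members and had the lowest cell cycle mean. Tsc1-/- replicate 5 was the highest of its group in 16 members. With the cell cycle level as a covariate, the accessory median was 0.20 and the core median -0.0016. These values are poorly determined, since the cell cycle means of the genotypes did not overlap. With the macrophage marker level the accessory and core medians were 0.25 and 0.02. The macrophage means of the genotypes overlapped only through WT replicate 4 (6.37, against 6.13 to 6.52 in Tsc1-/-). These medians are therefore poorly determined too. What part the cell cycle and macrophage marker RNAs have in the levels of the members was not tested further.

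**Figure D3:**
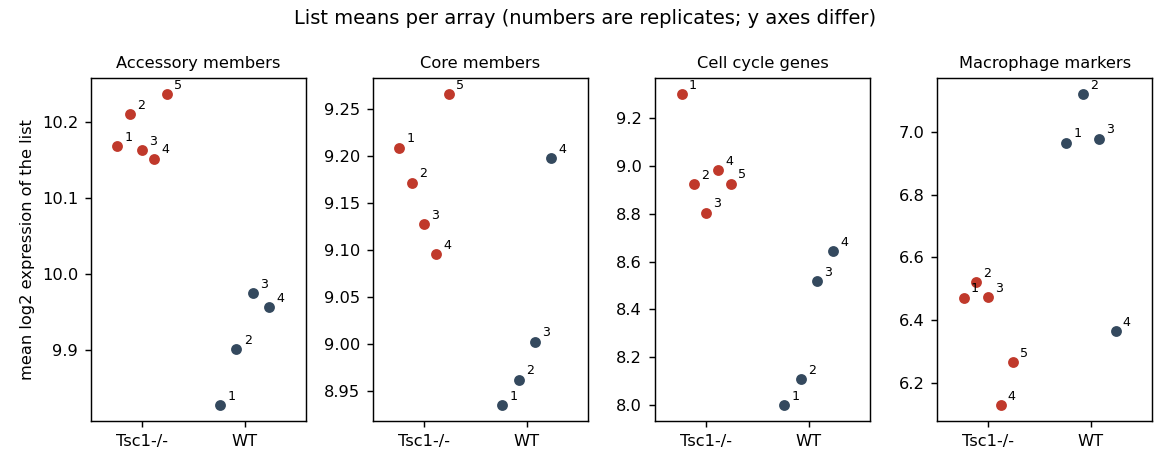
Mean log2 expression per array of accessory members, core members, cell cycle genes and macrophage markers, with Tsc1-/- left and WT right. WT replicate 4 lies among the Tsc1-/- arrays for core members (9.20) and macrophage markers (6.37), and below all of them for accessory members and cell cycle genes.

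In the proximal membrane arm all 7 measured members separated the genotypes, with a median difference of 0.32. Over all genes, 5.08% had every Tsc1-/- array above every WT array. Among genes at least as bright as the dimmest member the share was 14.3%. Beside Ndufc2 and Ndufa11, Ndufc1 read 10.33, 10.21, 9.99, 10.16 and 10.11 in Tsc1-/- and 9.68, 9.54, 9.87 and 9.87 in WT (difference 0.42, SE 0.10, limma adjusted p = 0.0534). A second probe set of Ndufc1 differed by 0.35. Ndufa1, a small X-linked subunit needed for assembly of the complex, differed by 0.32 (limma adjusted p = 0.0597). Ndufa8, which lies on the intermembrane side, differed by 0.30. Ndufa3 differed by 0.19 and Ndufa10, whose fold is related to nucleoside kinases, by 0.15.

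In the distal membrane arm the median over 10 members was 0.27. Of these 10, 4 separated the genotypes, where 5.08% of all genes had every Tsc1-/- array above every WT array. Ndufb7 read 12.14, 12.03, 11.92, 12.04 and 11.99 in Tsc1-/- and 11.62, 11.58, 11.81 and 11.69 in WT (difference 0.35, SE 0.08, limma adjusted p = 0.0529), and a second probe set differed by 0.40. Ndufb8 differed by 0.34 (limma adjusted p = 0.0590). Ndufb10 and Ndufb3 differed by 0.26 each with no overlap. Ndufb2 differed by 0.42 and Ndufab1, the mitochondrial acyl carrier protein that also serves fatty acid synthesis in mitochondria, by 0.37, but in both a WT array reached into the Tsc1-/- range (Ndufb2 limma adjusted p = 0.0765, Ndufab1 0.125). The others differed by 0.27 (Ndufb4), 0.23 (Ndufb9), 0.14 (Ndufb11) and 0.08 (Ndufb5, 95% interval -0.07 to 0.23).

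In the N module, the accessory subunit Ndufs6, which binds zinc, read 10.21, 10.13, 10.17, 10.07 and 10.27 in Tsc1-/- and 9.79, 9.79, 9.94 and 9.80 in WT. The groups did not overlap, and the difference was 0.34 (SE 0.08, limma adjusted p = 0.0513). Ndufa12 differed by 0.26, Ndufs4, a subunit whose loss in mice gives a model of Leigh syndrome, by 0.22, Ndufv3 by 0.21 and Ndufa2 by 0.11 (95% interval -0.06 to 0.29). The median of these 5 was 0.22. Of the 5, 4 separated the genotypes, where 5.08% of all genes had every Tsc1-/- array above every WT array.

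The 4 accessory subunits at the Q module and its edge had a median of 0.22. Ndufa5 differed by 0.32 (limma adjusted p = 0.0658) with no overlap, and Ndufa9, which holds a nucleotide cofactor, by 0.34 with overlap (limma adjusted p = 0.107). Ndufa7 differed by 0.12 (95% interval -0.08 to 0.32). Ndufa6 differed by 0.07 (95% interval -0.09 to 0.24), with 9.36, 9.46, 9.33, 9.27 and 9.50 in Tsc1-/- and 9.26, 9.28, 9.33 and 9.37 in WT, which overlapped.

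The SD of a member had a median of 0.08 over the 5 Tsc1-/- arrays and 0.10 over the 4 WT arrays. Further probe sets were available for 20 members, 31 in all. The 23 of them at or above the median level of all genes (6.34) all had positive differences, from 0.01 to 0.47 with a median of 0.23. The other 8, below that level, were split evenly, from -0.14 to 0.21. Among the accessory members not yet described by probe set, Ndufa12 differed by 0.31, Ndufa3 and Ndufa5 by 0.23 each, Ndufb2 by 0.47, Ndufb4 by 0.34 and Ndufb5 by 0.13 in their further probe sets above that level. The further ones of Ndufa7 differed by 0.08 to 0.20, those of Ndufab1 by 0.28 and 0.17, and those of Ndufb11 by 0.13 and 0.27. The dim probe sets differed by 0.21 (Ndufa10), 0.04 and 0.03 (Ndufs4), 0.03 (Ndufb8), -0.05 (Ndufa11), -0.09 (Ndufa12), -0.09 (Ndufb4) and -0.14 (Ndufab1). The chosen probe sets of Ndufa2, Ndufa12, Ndufa3 and Ndufab1 are of types that can detect related transcripts, so these are less certain as single-gene values.

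Of the alternative settings, 17 could change the members' differences, and in 12 of them all 33 stayed positive. The smallest count of positive members was 28 of 33, with the cell cycle level as a covariate. The accessory median was above the core median in the 16 settings that could change the gap between them, which was 0.09 to 0.25 there. When each array's trend on probe set level and gene length was removed, the accessory median was 0.20 and the core median 0.0010.

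**Figure D4:**
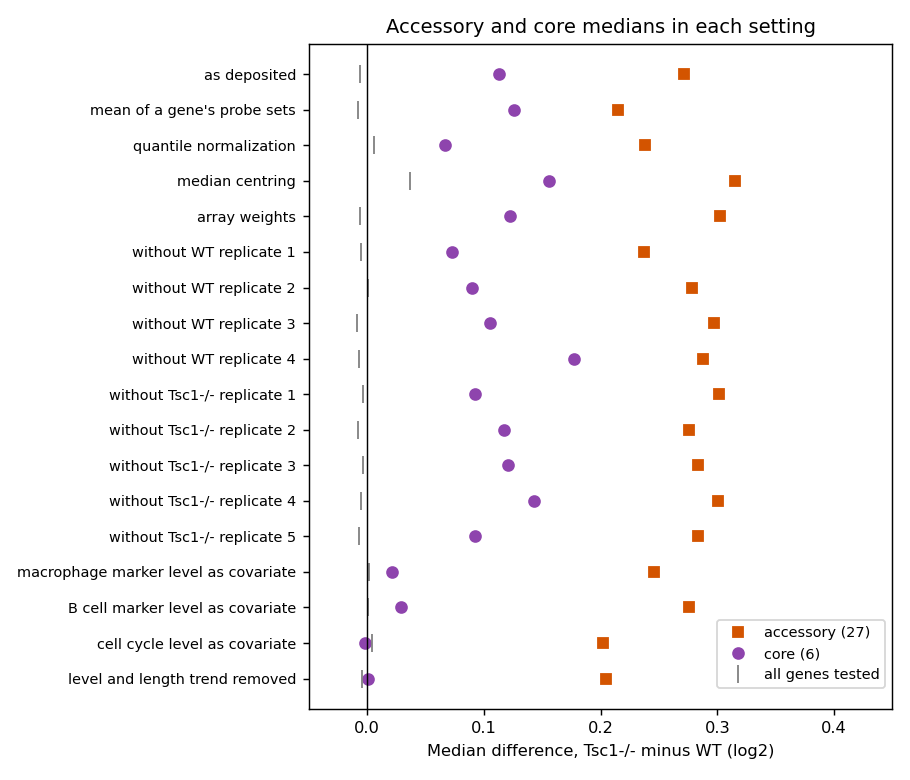
Median log2 difference (Tsc1-/- minus WT) of the 27 accessory members, the 6 core members and all genes, in each processing setting that can change the members' medians. Accessory medians lie between 0.20 and 0.31 and core medians between -0.0016 and 0.18.

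The other respiratory complexes had differences of the same direction, and no test of complex I against them was made. Of 37 measured genes listed for complexes II to V, which pass electrons to oxygen and make ATP, 36 had positive differences with a median of 0.23, and 4 rose: Uqcr11 (0.42) and Uqcrq (0.38) of complex III, Atp5k of the ATP synthase (0.35) and its inhibitor Atpif1 (0.46). Their limma adjusted p was 0.0394 or lower. The exception among the 37 was Atp5g2 at -0.13. Over all genes, 48.2% had positive differences and 0.971% were called higher. Among genes at least as bright as the dimmest complex I member the shares were 62.6% and 2.54%. By complex, the medians were 0.23 for complex II, 0.23 for complex III, 0.19 for complex IV and 0.23 for complex V. No gene of complexes II and IV passed (limma). An unadjusted p under 0.05 (limma) was found for 3 of 4 and 5 of 10 of them, and for 2936 of all 17097 genes. The smallest p in complexes II and IV were those of Sdhc (0.30), Sdhb (0.28), Cox7a2 (0.27) and Cox6b1 (0.24). Ndufa4, once counted as a complex I subunit and now as one of complex IV, differed by 0.26 (limma adjusted p = 0.156). Its paralog Ndufa4l2 differed by -0.0040, and the related AA467197 rose by 1.57 (limma adjusted p = 0.00612).

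Assembly factors of complex I had 15 of 17 positive differences, where 48.2% of all genes had positive ones. Their median was 0.15 and none passed the threshold (limma). An unadjusted p under 0.05 (limma) was found for 5 of the 17, and for 2936 of all 17097 genes. Ndufaf2, which acts late in assembly of the N module, differed by 0.34 (limma adjusted p = 0.187) and Tmem70 by 0.32 (limma adjusted p = 0.181). Dmac2 and Tmem126b were negative at -0.18 and -0.03. Of 10 regulators of respiratory gene expression, 6 were positive and none passed (limma; 3 had an unadjusted p under 0.05), with a median of 0.08. Tfam, which packages and transcribes mitochondrial DNA, differed by 0.27 and Gabpb1 by 0.32 (limma adjusted p = 0.171 and 0.240). Tfb2m differed by -0.20, Pprc1 by -0.20, Esrra, an estrogen-related receptor, by -0.14 and Yy1 by -0.02.

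Because the differences of all members had one sign, promoter windows were searched for the letters bound by factors known for respiratory genes. RefSeq windows of build GRCm38.p6, from 250 bases before to 50 after each annotated start, were held for 29 of the 33 members and for 27025 genes in all. The search covered both strands, and no match of one motif overlapped one of another. The YY1 letters AAGATGGC stood in 7 of the 29 members (24.1%) and in 3.19% of all genes. The NRF1 motif, which is the capitals of the Ndufa11 stretch printed further on with any base in place of the T, stood in 6 members (20.7%, against 5.19% of all genes): Ndufa5, Ndufa6, Ndufa8, Ndufa11, Ndufb4 and Ndufs6. The ETS letters CCGGAAG were in 3 members (10.3%, against 9.93%), the E-box CACGTG in 2 (6.90%, against 8.09%) and the ERR letters AAGGTCA in 2 (6.90%, against 5.38%). The 7 stretches with the YY1 letters in capitals are shown on the gene's strand, because all 7 lie after the start, beginning 23 to 39 bases into the transcript, and all read in the same direction. The letters include ATG, and whether that is the start codon was not examined.
Ndufc1 chr3:51408916-51408943 minus strand: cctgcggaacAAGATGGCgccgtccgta
Ndufa9 chr6:126849098-126849125 minus strand: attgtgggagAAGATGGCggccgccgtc
Ndufa3 chr7:3617385-3617412 plus strand: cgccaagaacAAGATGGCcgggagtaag
Ndufs7 chr10:80249463-80249490 plus strand: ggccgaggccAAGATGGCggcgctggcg
Ndufs6 chr13:73328433-73328459 minus strand: ggtcaccggcAAGATGGCggcggtgct
Ndufs4 chr13:114388045-114388069 minus strand: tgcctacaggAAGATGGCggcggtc
Ndufb8 chr19:44555393-44555414 minus strand: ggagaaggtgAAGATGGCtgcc

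The differences of these 7 members ran from 0.06 for Ndufs7 to 0.42 for Ndufc1, with a median of 0.34, against 0.26 in the 22 members with a window and without the letters. For the other motifs, the median with and without the letters was 0.31 and 0.26 (NRF1), 0.35 and 0.26 (ETS), 0.13 and 0.27 (E-box), and 0.35 and 0.26 (ERR), over 2 to 6 members with them. Of the called members, Ndufa11 holds the NRF1 letters before its start and Ndufs8 the ETS letters, on the other strand, just after it; both are shown with the match in capitals. Ndufc2 holds none of the 5 motifs in this window.
Ndufa11 chr17:56717692-56717721 plus strand: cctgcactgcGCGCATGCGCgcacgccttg
Ndufs8 chr19:3912743-3912769 minus strand: taggctccgcCTTCCGGttgaaccgca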

How the data were processed

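Each sample was hybridised to 1 expression array after 12 ng of total RNA had been amplified and labelled with NuGEN kits, per the labels' protocols. The values used are the log2 levels that the authors deposited, 1 for each probe set, computed with RMA and Partek 6.5 per the submitters' processing notes. The options used are not stated in the sources used here. Since RMA equalises intensity distributions between arrays, a shift of most transcripts together is hidden. Array medians were 5.97 to 6.05, and the precision is limited by there being 9 arrays. The array annotation named 1 gene for 28898 of 45037 probe sets, and symbols were updated through Entrez identifiers with RefSeq (GRCm38.p6).

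Genotypes were compared with limma 3.58.1 in R 4.3.3 (lmFit and eBayes, genotype as the only term, two-sided, no filter on dim genes), with Benjamini-Hochberg adjustment over 17097 genes and a threshold of 0.05. The procedure was tested on simulated data. It called 61% of genes changed by 0.5 on the log2 scale, 96% of those changed by 1, and 8 unchanged genes. The largest difference of a member was 0.43, and changes below 0.5 were not simulated.

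Members, gene lists and alternatives were chosen with earlier results of these data known. The rule for naming gave all core subunits, the members called, the 6 accessory members with the smallest p and the 4 members with the lowest differences, each with all its probe sets. From the lists of assembly factors, other respiratory complexes and regulators it gave the genes called, or else the 2 with the smallest p. The remaining members, single markers and the negative genes of other lists were added after their values were seen. The 5 promoter motifs given are of 15 letter patterns tried, chosen after their matches were seen. Alternatives were other scalings, probe set choices, filters, variance models and covariates, the replicate block and leaving out each array.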

Additional observations from a re-analysis of the deposited data

Results flagged for a closer look

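In 66 groups of 4 or 5 arrays (33 members in each genotype), 3 levels stood far from the rest of their group by Dixon's ratio, where chance gives about 5% of groups. Ndufv1 in WT replicate 4 was 9.52, with the other WT arrays at 8.95 to 9.00. Ndufs6 in WT replicate 3 was 9.94, with the others at 9.79 to 9.80. Ndufa3 in WT replicate 2 was 10.91, with the others all at 10.92, a small gap in a group whose SD was 0.01.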

How the results depend on the processing

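As deposited, 4 members (and 0.971% of all genes) were called higher. The count was 12 at an adjusted p under 0.1 (3.09% of all genes), 14 with dim genes left out (6.17%), 18 with a variance trend and robust estimation (2.98%), 10 with median centring (2.23%), 10 with array weights (1.99%) and 5 with probe sets averaged per gene (1.02%), of which only Ndufc2 was among the 4. It was 0 (limma) with probe sets not joined to genes, quantile normalization, the macrophage marker, B cell marker or cell cycle level as a covariate, and the level and length trend removed, where 22, 22, 13, 16, 4 and 17 members had an unadjusted p under 0.05. Over all genes, the counts at that p were 2750, 2751, 1670, 1879, 1449 and 2615 in the same order (limma). Leaving out 1 array gave 0 to 7 member calls, where 1 to 297 of all genes were called higher. Over all genes, 166 were called higher and 53 lower as deposited, 58 and 32 after quantile normalization, and 381 and 57 after median centring. With the replicate number as a block, 0 members were called and 0 genes of the array. An unadjusted p under 0.05 (limma) was found there for 20 members and 2354 of all 17097 genes. The replicate numbers showed no sign of pairing the samples. Deviations of same-numbered arrays correlated at -0.10, 0.09, -0.07 and 0.02, and those of other pairs at -0.09 to 0.10. Replicate 5 has no partner, and shared handling was not tested. The cause of these changes was not tested.

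The median difference of 0.26 was 0.19 with probe sets averaged (accessory 0.21), 0.20 with the cell cycle level (accessory 0.20, core -0.0016) and 0.17 with the level and length trend removed (accessory 0.20, core 0.0010). Without 1 array, it was 0.22 to 0.28, with 0.24 to 0.30 for accessory and 0.07 to 0.18 for core members. Members turned negative, none of them called, with the macrophage marker level (Ndufs1 -0.017, Ndufs7 -0.12, Ndufv1 -0.10), the B cell marker level (Ndufs7 -0.062), the cell cycle level (Ndufb11 -0.021, Ndufb5 -0.035, Ndufs3 -0.015, Ndufs7 -0.21, Ndufv1 -0.24) and the trend removed (Ndufa6 -0.049, Ndufs1 -0.016, Ndufs3 -0.012, Ndufs7 -0.032). Ndufs1 ran from -0.0071 (without WT replicate 3) to 0.075 with 1 array left out.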
